A study of Homo sapiens with 6 samples.

Results

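The pseudogenes of KRT8, KRT18 and KRT19 were examined in HGC27 cells, an established gastric cancer cell line, with and without overexpression of the FN1 3′-UTR. A row was taken as a member when its name was that of one of these keratins followed by P and a number, and 118 of the 39739 gene rows qualified. They comprised 50 KRT8 pseudogenes, 65 KRT18 pseudogenes and 3 KRT19 pseudogenes. The HGC27-FN1 3′-UTR cells carried the FN1 3′-UTR stably through a lentivirus, and the HGC27-control cells were labelled as control, with no vector named in the labels. Each group had 3 libraries. The sources used here do not say whether these came from separate cultures, so p-values measure the spread between these samples, which may be technical.

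Keratin 8 is a type II keratin and keratins 18 and 19 are type I keratins, and each intermediate filament pairs one of either type. These keratins are the main ones of simple epithelia such as the stomach lining. A processed pseudogene is a copy of a spliced mRNA that was reverse transcribed and inserted elsewhere in the genome, without the introns or promoter of its parent. KRT8 and KRT18 are among the genes with very many such copies, and these can be read when they lie inside another transcript or near another promoter. Because the copies resemble the parent, a short read from one can be hard to place.

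The libraries were strand-specific mRNA libraries, and the authors deposited RPKM, the reads of a gene per kilobase of its exons per 1000000 reads assigned to genes. Whole reads could be recovered from RPKM and length for 100% of values. Depth was 16357085 to 29202046 reads in the HGC27-FN1 3′-UTR group and 22332816 to 37037532 in the HGC27-control group. Levels that do not use gene length are given as RPM, reads per 1000000 of these reads. At these depths 3 reads corresponded to 0.081 to 0.183 RPM, a floor that covers counting error only. FN1, whose row takes in all its exons, was at 0.78 ± 0.0371 RPKM in HGC27-FN1 3′-UTR cells and 0.516 ± 0.037 in HGC27-control cells (SD, n = 3 each). The mesenchymal markers VIM, ZEB1, FN1 and SPARC summed to 344 to 371 RPKM in HGC27-FN1 3′-UTR libraries and 322 to 362 in HGC27-control libraries. The epithelial markers CDH1, EPCAM, CLDN4, CLDN7 and ESRP1 summed to only 3.56 to 4.88 RPKM against 1.65 to 1.82. Two-sided limma on log2(RPKM + 0.1) called 2 of these 5 higher, CDH1 and EPCAM. Their part in the results below was not tested. The endothelial markers reached at most 0.0222 RPKM in sum, with PECAM1 at 0 reads. The leukocyte markers were at 2.9 to 3.18 against 3.11 to 3.61 RPKM, the fibroblast markers at 126 to 129 against 88.6 to 98.8 and the red cell markers, here HBA1 and HBA2, at 36.5 to 40.1 against 43.6 to 55.4. No gene of these 3 lists was called. In bulk RNA, fewer cells of a type and less RNA per cell cannot be told apart.

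As an example of likeness, 30 bases near the start of the coding region are given for the parent and for chosen pseudogenes with reads. Each window was the first in which the chosen copies aligned without a gap, so it may overstate likeness. KRT8P3 was not among the copies chosen. Sequences are GENCODE release 29 transcripts on GRCh38, 5′ to 3′, and capitals mark bases that differ from the parent. The KRT8 stretch begins at coding base 15 and lies at chr12:52904938-52904967 on the reverse strand. Its counterparts lie at chr3:160567866-160567895 (KRT8P12, forward), chr5:123402300-123402329 (KRT8P33, reverse), chr4:102730128-102730157 (KRT8P46, reverse), chr3:138102874-138102903 (KRT8P36, reverse) and chr12:68705648-68705677 (KRT8P39, forward).
KRT8: gacccagaagtcctacaaggtgtccacctc
KRT8P12: gaTccagaagtcctacaaggtgtccacctT
KRT8P33: gacccagaagtcctacaaggtgtccacctc
KRT8P46: gacccagaagtcctacaaggtgtccacctc
KRT8P36: gacccagaagtcctacaaggtgCccacctc
KRT8P39: gacccagaagtcctTcaaggtgtccaActc

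The KRT18 stretch begins at coding base 6 and lies at chr12:52949179-52949208 on the forward strand. Its counterparts lie at chr22:20484071-20484100 (KRT18P5, reverse), chr20:49956747-49956776 (KRT18P4, forward), chr5:36885211-36885240 (KRT18P31, forward) and chr3:12788637-12788666 (KRT18P17, reverse). In these windows KRT8P33 and KRT8P46 held 0 differing bases, the 4 KRT18 copies and KRT8P36 held 1 each, and KRT8P12 and KRT8P39 held 2 each.
KRT18: cttcaccactcgctccaccttctccaccaa
KRT18P5: cttcaccactcgctcTaccttctccaccaa
KRT18P4: cttcaccactcgctccaccttctccacTaa
KRT18P31: cttcaccactTgctccaccttctccaccaa
KRT18P17: cttcaccaGtcgctccaccttctccaccaa

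Identity to the parent was taken over the aligned bases of the longest pseudogene transcript of each member, with gaps not counted. It ranged from 81.8% to 97.1%, with a median of 91.4% (n = 118). The aligned bases covered 75.3% to 100% of these transcripts. A counted row can be longer than the transcript compared, at 2047 beside 1397 bases for KRT8P12, and the rest was not compared. The longest run of bases shared exactly with the parent had a median of 56.5 bases and reached 133. Windows of 50 bases found unchanged in the parent occurred in 76 members, windows of 100 bases in 4, and windows of 150 bases in 0. Of the 118, 116 are processed pseudogenes and 2 unprocessed pseudogenes in GENCODE release 29, and 5 are annotated as transcribed. A single exon made up 107 of them.

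The pseudogenes were sparsely read. No read was found for 53 of the 118 over the 6 libraries together, 49 had 1 to 9 reads, 9 had 10 to 29 reads and 7 had 30 or more. The 7 were KRT8P12, KRT8P33, KRT8P46, KRT8P3, KRT18P5, KRT8P36 and KRT8P39. KRT8P12 alone held 63.3% of all KRT8 pseudogene reads, and KRT18P5 held 32.4% of those of KRT18 pseudogenes.

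All 3 parents rose in HGC27-FN1 3′-UTR cells. KRT8 had 1277, 1814 and 2928 reads in HGC27-FN1 3′-UTR replicates 1 to 3 and 329, 429 and 584 in the controls. KRT18 had 198, 317 and 641 reads against 12, 16 and 25. KRT19 had 58, 70 and 165 reads against 3, 7 and 6. Neither group of libraries overlapped the other for any parent, although each control was deeper than the HGC27-FN1 3′-UTR library of the same number. The log2 fold changes were 2.44 (SE 0.12) for KRT8, 4.11 (SE 0.23) for KRT18 and 3.34 (SE 0.26) for KRT19, with limma adjusted p-values of 0.00043, 0.000557 and 0.00146. KRT19 passed the filter of 0.1 RPKM in 3 or more libraries only through the HGC27-FN1 3′-UTR group. In the controls it was at 0.0575, 0.0972 and 0.0694 RPKM. The deposited KRT8 and KRT18 rows overlap on opposite strands, and the strand setting used in counting is not given in the sources used here.

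Most well-read pseudogenes did not pass the criteria that their parents passed. Of the 9 members that reached 0.1 RPKM in 3 or more libraries, limma found 1 upregulated and 0 downregulated. The criteria were a log2 fold change beyond 1 in either direction together with a P under 0.05 before adjustment. Over all 23299 genes tested, 1.65% were upregulated and 0.815% downregulated. At an unadjusted P under 0.05 and any fold change, 2 of the 9 members were higher and 1 lower, beside 12% and 17.6% of all genes. In turn, limma's voom on the recovered reads called 2 up and 1 down among 16 members, beside 2.98% and 1.6% of all genes in that fit. The median log2 fold change of the 9 was 0.15, beside -0.035 over all genes tested. The libraries did not overlap between groups for 3 of the 9, which were KRT8P3 and KRT8P39, both higher, and KRT18P31, which was lower. Over all genes, 14.3% were higher and 21.7% lower without overlap. KRT8P3, KRT8P36 and KRT8P39 would not have met the minimum RPKM from the control libraries alone, nor KRT18P31 from those of HGC27-FN1 3′-UTR cells. KRT18P4 would have met it from neither group alone. The counts over the 9 therefore describe members that passed this filter.

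**Figure D1:**
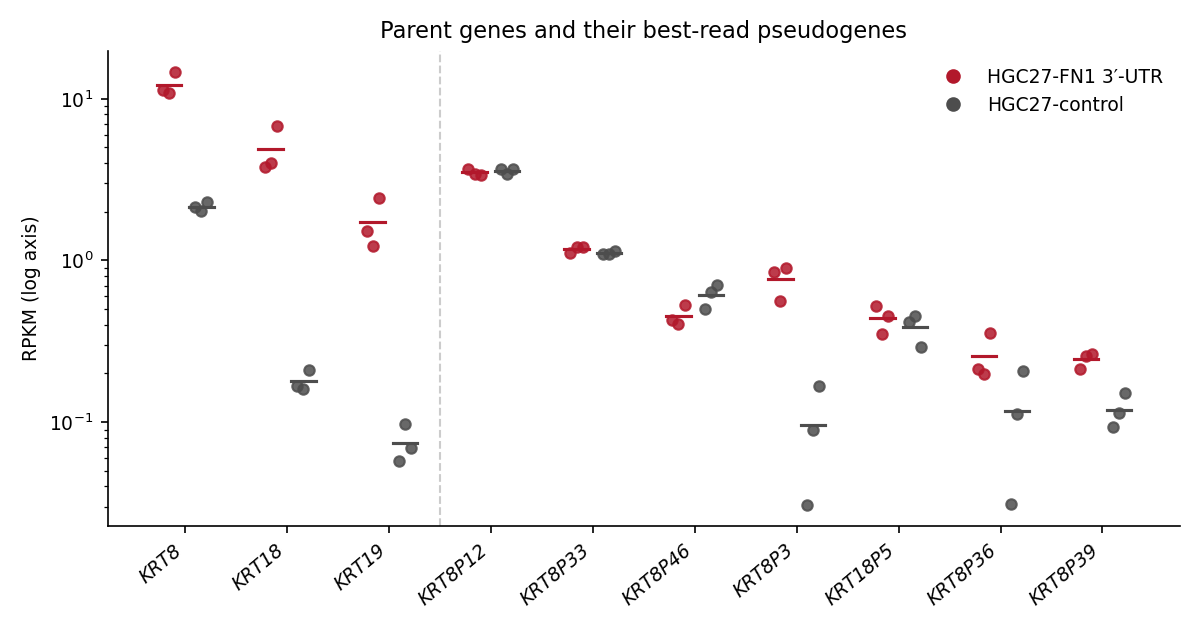
RPKM of the 3 parent genes and the 7 pseudogenes with 30 or more reads, on a log axis. Points are libraries and bars are group means (n = 3). The parents and KRT8P3 sit higher in HGC27-FN1 3′-UTR cells, while the points of KRT8P12, KRT8P33 and KRT18P5 overlap between groups.

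KRT8P3 was the pseudogene that passed the criteria as upregulated. It lies at chr8:61578220-61579668 on the forward strand, within an intron of ASPH, a gene of the opposite strand that encodes an aspartate hydroxylase. It had 20, 20 and 38 reads in HGC27-FN1 3′-UTR replicates 1 to 3 and 1, 4 and 9 reads in the controls. All 3 HGC27-FN1 3′-UTR libraries were above all 3 controls. The mean level was 1.11 ± 0.259 RPM against 0.139 ± 0.0994 (SD, n = 3 each), a ratio of 8.01. The log2 fold change of log2(RPKM + 0.1) was 2.19 (SE 0.31), with a limma adjusted p of 0.00958. With a pseudocount of 1 the log2 fold change was 0.69 and the call was lost, although the adjusted p was 0.00749. At that pseudocount 0 members and 0.275% of all genes were upregulated by limma, and 2 members and 12% of all genes were higher at an unadjusted P under 0.05. ASPH itself changed by 0.13 on the same scale (SE 0.031, adjusted p 0.0437).

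KRT8P3 was also the member most like its parent. Its identity to KRT8 was 97.1%, ranked 1 of 118, and its longest exact run was 129 bases, ranked 2. Windows of 50 bases unchanged in KRT8 made up 28.2% of its windows, and windows of 100 bases 5.26%. It had 13 reads per 1000 KRT8 reads in HGC27-FN1 3′-UTR cells and 10.4 in HGC27-control cells. Whether its reads came from the copy or from KRT8 was not tested, since single reads were not analysed here.

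KRT8P12, the most read pseudogene, was at like levels in both groups. It is a transcribed processed pseudogene at chr3:160565447-160569248 on the forward strand, with 4 exon entries in the deposited row, and it overlaps an exon of KPNA4, a nuclear import receptor gene of the opposite strand. It had 124, 172 and 203 reads against 168, 215 and 280 in the controls. After scaling, these corresponded to 7.19 ± 0.34 and 7.35 ± 0.327 RPM (SD, n = 3 each), and the libraries of the groups overlapped. The log2 fold change was -0.031 (SE 0.059, limma adjusted p 0.777), with a sign that turned under another scaling. Its RPKM was 3.51 ± 0.166 against 3.59 ± 0.16 in HGC27-control cells, where KRT8 itself was at 2.15 ± 0.135. In HGC27-FN1 3′-UTR cells KRT8 was at 12.2 ± 2.04 RPKM. The deposited KRT8 row merges 6881 bases of exons, beside 1882 bases in its main transcript, so no order of parent and pseudogene levels is drawn from RPKM. In reads, KRT8P12 was below KRT8 in every library.

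Another 4 of the well-read KRT8 pseudogenes lay in introns of protein-coding genes of the same strand. KRT8P33 lies at chr5:123400922-123402344 in an intron of CEP120, which encodes a centrosomal protein. It had 26, 42 and 50 reads against 35, 48 and 60 in the controls, and its log2 fold change was 0.075 (SE 0.078, limma adjusted p 0.585). CEP120 changed by -0.065 (SE 0.069). KRT8P33 had an identity of 95.8% to KRT8 and the longest exact run of all members, 133 bases. Its unchanged windows were 9.32% at 50 bases and 2.57% at 100 bases, fewer than those of KRT8P3.

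KRT8P46 lies at chr4:102728746-102730171 in an intron of MANBA, the lysosomal beta-mannosidase gene. It had 10, 14 and 22 reads against 16, 28 and 37 in the controls. The groups overlapped in RPM, and the log2 fold change was -0.36 (SE 0.16, limma adjusted p 0.196). MANBA was at -0.22 (SE 0.15) on that scale.

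KRT8P36 and KRT8P39 had higher means in HGC27-FN1 3′-UTR cells but did not pass the criteria. Their ratios in RPM were 2.19 and 2.05, and the added 0.1 lowers the log2 fold change at such levels. KRT8P36, in an intron of DZIP1L, which encodes a ciliary protein, had 5, 7 and 15 reads against 1, 5 and 11. Its groups overlapped, and its log2 fold change was 0.77 (SE 0.36, limma adjusted p 0.217). KRT8P39, in an intron of the nuclear pore gene NUP107, had 5, 9 and 11 reads against 3, 5 and 8. Its levels of 0.306 to 0.377 lay above the 0.134 to 0.216 RPM of the controls, with a log2 fold change of 0.66 (SE 0.2, adjusted p 0.0793). The genes around them were at 0.31 (SE 0.069) for DZIP1L and 0.097 (SE 0.035) for NUP107. Without HGC27-control replicate 3, which held 11 of the 17 control reads of KRT8P36, that pseudogene reached 1.06 with an unadjusted limma P of 0.0249 and was called. Without HGC27-control replicate 1 it was at 0.45 (unadjusted limma P 0.194), and without HGC27-FN1 3′-UTR replicate 3 at 0.58 (P 0.21). It was not called in either.

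No KRT18 pseudogene was called, while KRT18 itself rose 27.2-fold in RPKM. KRT18P5 lies at chr22:20482815-20484105 and touches an exon of KLHL22, a ubiquitin ligase adaptor gene of the same strand. It had 11, 11 and 17 reads against 12, 18 and 14, with a log2 fold change of 0.15 (SE 0.2, limma adjusted p 0.674). KLHL22 was at -0.27 (SE 0.055). The libraries of the groups overlapped for KRT18P5.

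The other 2 KRT18 pseudogenes tested had fewer reads and were named after their values were seen. KRT18P4, over no other gene, had 4, 2 and 8 reads against 1, 6 and 6, with a log2 fold change of 0.32 (SE 0.37, limma adjusted p 0.632). KRT18P31, in an intron of the cohesin loader gene NIPBL, had 1, 1 and 2 reads against 5, 5 and 6. This lower level gave a log2 fold change of -0.74 (SE 0.23, adjusted p 0.0855) and did not pass the criteria, while NIPBL was at 0.077 (SE 0.038). It was called lower with a pseudocount of 0.01 and by voom. KRT18P59, annotated as transcribed and likewise named after its values were seen, had 2, 4 and 6 reads against 4, 7 and 4. It did not reach the minimum RPKM.

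**Figure D2:**
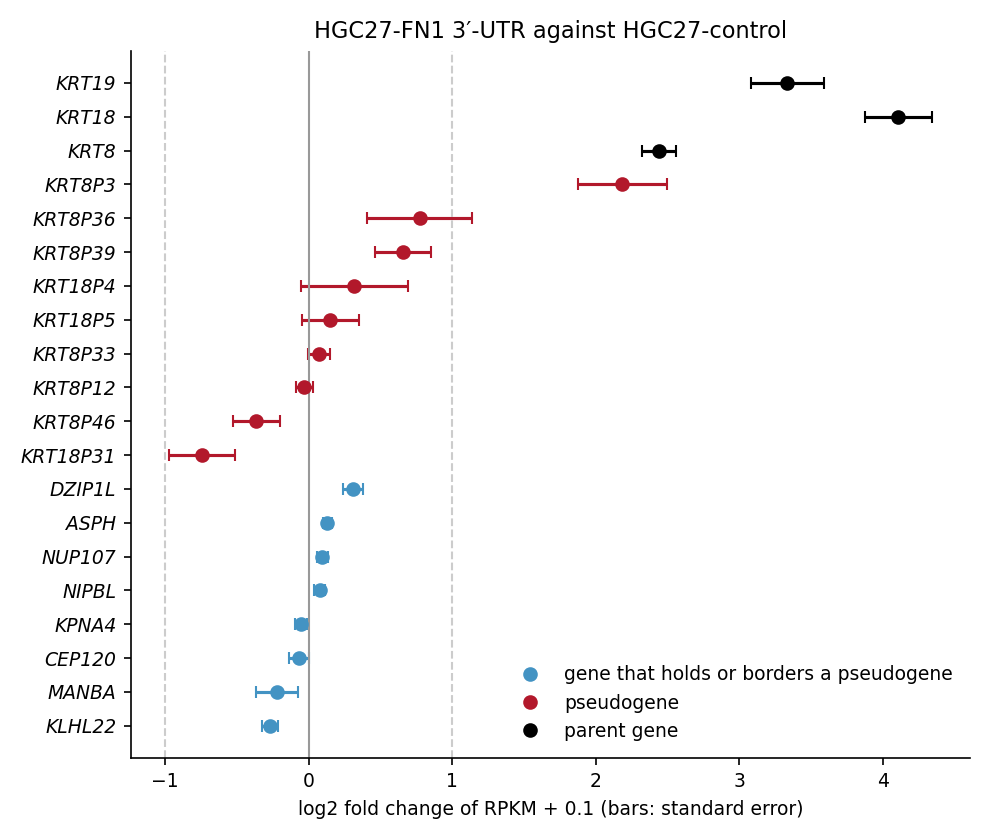
The log2 fold change of log2(RPKM + 0.1), HGC27-FN1 3′-UTR against HGC27-control, for the 3 parents, the 9 pseudogenes tested and 8 genes that hold or border them. Bars are standard errors and dashed lines mark an absolute log2 fold change of 1. KRT8P3 at 2.19 sits near KRT8 at 2.44, and the other 8 pseudogenes lie between -0.74 and 0.77.

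The log2 ratio of each pseudogene to its parent, with 0.5 reads added to both, was compared for the 7 with 30 or more reads. An exact permutation test, two-sided, was used. With 3 libraries against 3 the smallest p is 0.1, so no comparison could reach 0.05. The log2 ratio of KRT18P5 to KRT18 averaged -4.7 ± 0.549 in HGC27-FN1 3′-UTR cells and -0.22 ± 0.524 in HGC27-control cells (SD, n = 3 each), a difference of -4.48. KRT8P46, KRT8P12, KRT8P33 and KRT8P39 differed by -2.91, -2.53, -2.41 and -1.49 against KRT8. These 5 did not overlap between groups and reached the exact permutation p of 0.1, adjusted p 0.14 over the 7. KRT8P36 differed by -1.2 (exact p 0.2, adjusted p 0.233), and by -1.31 (exact p 0.1) with 1 read added in place of 0.5. KRT8P3 was the member whose ratio was higher, by 0.54, and its groups overlapped, from -6.47 to -5.96 against -7.78 to -5.94 (exact p 0.5, adjusted p 0.5). Its control ratios rested on 1 to 9 reads a library, and with 1 read added the difference was 0.36 (exact p 0.7).

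The share of a family's reads that fell in pseudogenes was lower in HGC27-FN1 3′-UTR cells. Of the reads of KRT8 and its 50 pseudogenes, pseudogenes held 13.8%, 13.7% and 11.2% in HGC27-FN1 3′-UTR replicates 1 to 3 and 41.5%, 42.7% and 41.9% in the controls. The 95% Clopper-Pearson intervals, which cover counting error only, spanned 10.1% to 15.6% over the first group and 37.4% to 46.4% over the second. Of the reads of KRT18 and its 65 pseudogenes, pseudogenes held 13.5%, 11.2% and 8.3% against 71.4%, 75.4% and 65.8%. In HGC27-control cells, then, more reads were assigned to KRT18 pseudogenes, 127, than to KRT18, 53. The corresponding reads in HGC27-FN1 3′-UTR cells were 129 and 1156.

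The summed pseudogene reads themselves were slightly higher, not lower, in HGC27-FN1 3′-UTR cells. KRT8 pseudogenes summed to 12.3 ± 0.435 RPM in HGC27-FN1 3′-UTR cells and 10.7 ± 0.57 in HGC27-control cells (SD, n = 3 each), a ratio of 1.15. KRT18 pseudogenes summed to 1.84 ± 0.181 against 1.41 ± 0.158, a ratio of 1.3. The libraries of the groups did not overlap for either sum. For KRT8 this lack of overlap depended on KRT8P3, which alone stood at 1.11 against 0.139 RPM. The KRT8 sum was mostly KRT8P12, and without it the ratio was 1.51. For the 36 KRT8 pseudogenes other than KRT8P12 with no same-strand gene, a set chosen after the values were seen, there were 117 reads against 35, a ratio of 4.63 in RPM. Without KRT8P3 as well, the 35 left had 39 reads against 21, a ratio of 2.51. No test was made of a sum over members.

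**Figure D3:**
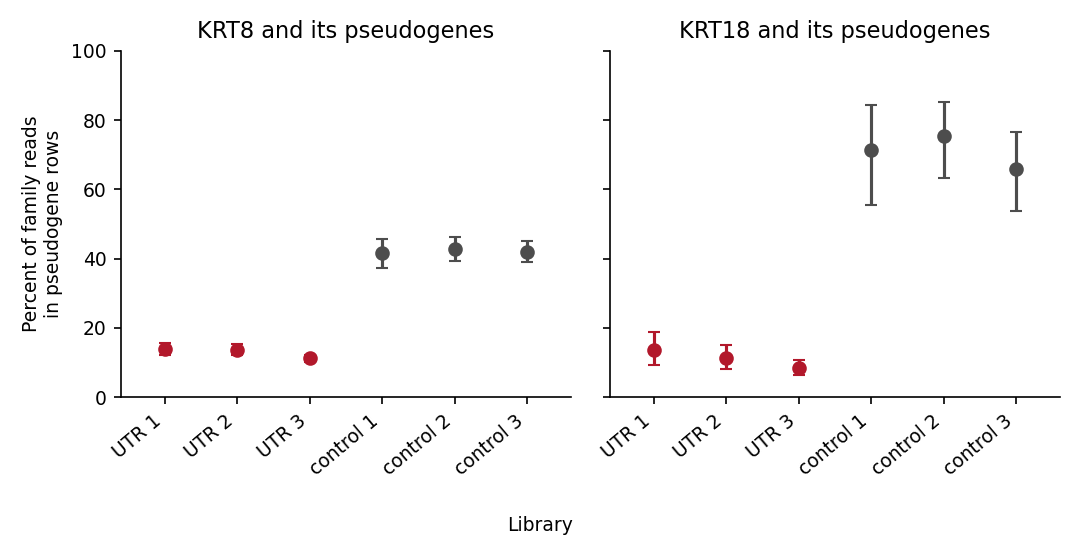
Percent of the reads of each family, parent and pseudogenes together, that were assigned to pseudogene rows in each library. Bars are 95% Clopper-Pearson intervals. Both families sit under 14% in HGC27-FN1 3′-UTR libraries, labelled UTR, and at 41.5% or more in the controls.

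Most pseudogene reads fell in members that overlap another gene. The 24 members inside or over a gene of the same strand held 30.8% of all pseudogene reads and the 19 over an opposite-strand gene only held 61.9%, most of them in KRT8P12. The 75 members over no other gene held 7.31%. In the same-strand class KRT8 pseudogenes stood at 3.43 ± 0.384 RPM against 3.02 ± 0.295, and KRT18 pseudogenes at 0.848 ± 0.229 against 0.74 ± 0.0836 (SD, n = 3 each), with overlap between groups in both.

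The members over no other gene, a set chosen after the values were seen, differed more for KRT8. Their KRT8 copies had 8, 17 and 14 reads against 3, 8 and 9, or 0.555 ± 0.122 against 0.212 ± 0.068 RPM (SD, n = 3 each), a ratio of 2.61 without overlap. Their KRT18 copies had 8, 14 and 27 reads against 9, 20 and 14, a ratio of 1.39 with overlap. Neither ratio was as large as that of the parent, 5.69 for KRT8 and 27.2 for KRT18.

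The members with 1 to 9 reads, a set chosen after the values were seen, showed the same direction in both families. The 24 such KRT8 pseudogenes had 42 reads in HGC27-FN1 3′-UTR cells and 19 in HGC27-control cells, a ratio of 2.9 in RPM. The 24 such KRT18 pseudogenes had 46 reads against 26, a ratio of 2.29. The libraries of the groups did not overlap in either family. With 1 KRT19 pseudogene, these 49 members included 23 read only in HGC27-FN1 3′-UTR cells, 8 read only in HGC27-control cells and 18 read in both. The same split was not counted for other genes with 1 to 9 reads, so no background stands beside it. Members with 10 or more reads do not enter these sums, which leaves out KRT8P3, KRT8P12 and the others described above.

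More pseudogenes were read in HGC27-FN1 3′-UTR cells. A read was found for 27, 41 and 41 of the 118 in HGC27-FN1 3′-UTR replicates 1 to 3 and for 20, 28 and 32 in the controls. Each control was deeper than the HGC27-FN1 3′-UTR library of the same number, but control replicate 1 was shallower than HGC27-FN1 3′-UTR replicates 2 and 3. When every library was brought to the lowest depth by calculation, the expected numbers were 27, 33.1 and 31 against 17.6, 21.4 and 22. The groups did not overlap, and this held within KRT8 pseudogenes, at 15 to 18.4 against 10.4 to 12.3, and within KRT18 pseudogenes, at 12 to 14.1 against 7.15 to 9.73. For 3656 pseudogene rows of other genes, the expected numbers were 1982 to 2077 against 1978 to 2110, with overlap.

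**Figure D4:**
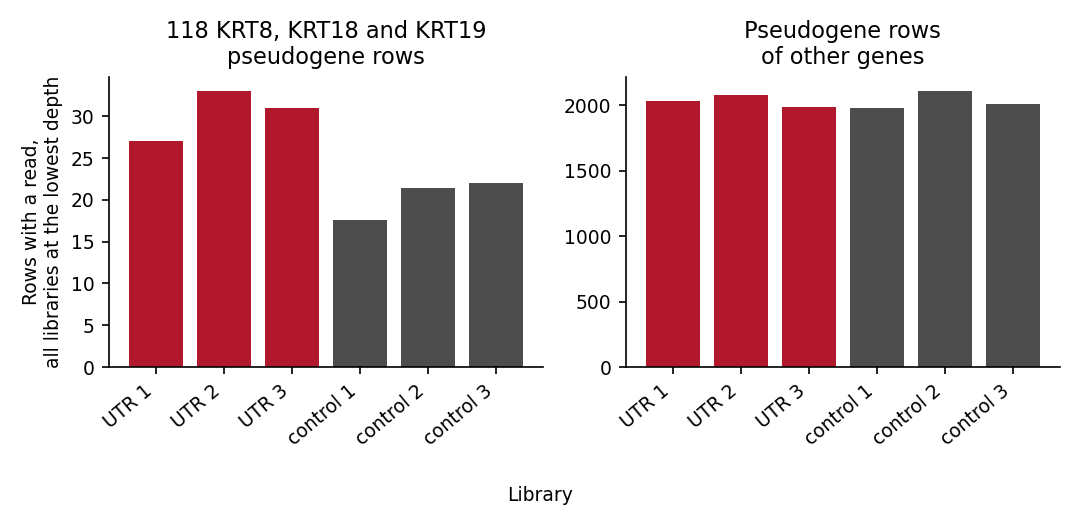
Expected number of rows with at least 1 read in each library at the lowest depth of the 6, 16357085 reads, for the 118 keratin pseudogenes and for 3656 pseudogene rows of other genes. The keratin pseudogenes stand at 27 to 33.1 in HGC27-FN1 3′-UTR libraries, labelled UTR, and 17.6 to 22 in the controls, while the other pseudogenes overlap.

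Of the 23 members read only in HGC27-FN1 3′-UTR cells, 3 had more than 3 reads, and these were named after their values were seen. KRT18P17 had 0, 2 and 5 reads, KRT8P11 had 2 in each of the 3 libraries and KRT18P11 had 0, 3 and 1. Set against the floor of 3 reads over the control group, 0.0333 RPM, KRT18P17 stood at 3 times that floor, KRT8P11 at 2.6 and KRT18P11 at 1.7. These ratios leave out the counting error of the 7, 6 and 4 reads, so they are not lower limits. No member showed the reverse with more than 3 reads. KRT8P48, in an intron of PPP2R2B and likewise named after its values were seen, had 2, 2 and 3 reads against 0, 0 and 1. Without a filter on low values, 2.92% of 36521 genes had a limma adjusted p under 0.05 and were higher. Among the 65 members with a read, KRT8P3, KRT8P11 and KRT8P48 did so, with adjusted p-values of 0.0174, 0.0329 and 0.0371. KRT8P11 and KRT8P48, with 0 and 1 control reads, had too few reads for the main and voom fits. Most of their control values were the pseudocount alone.

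KRT19 pseudogenes were nearly unread. KRT19P1, a single-exon copy at chr6:71584721-71585906 with 92.4% identity to KRT19, had 0, 1 and 1 reads in HGC27-FN1 3′-UTR replicates 1 to 3. It had 0 reads in the controls, which allows up to 0.0333 RPM over that group. No difference was detectable at this depth. KRT19P2 and KRT19P3 had 0 reads in all 6 libraries, while KRT19 rose from 16 reads over the controls to 293.

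Likeness to the parent went with reads only loosely. Members with a read had a median identity of 92% (n = 65) and those without 90.4% (n = 53), and their longest exact runs had medians of 61 and 48 bases. Across all 118 members, Spearman's rho between identity and total reads was 0.31. Across the 16 with 10 or more reads, rho between identity and log2 fold change was 0.41. Members share their parent sequence, so they are not independent points, and these values are descriptions. Among the 10 members with the highest identity, from 93.5% to 97.1%, 2 had no read. KRT8P45, named after its values were seen, had an identity of 95.6% and an exact run of 114 bases, and had 3, 4 and 1 reads against 0, 3 and 1.

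**Figure D5:**
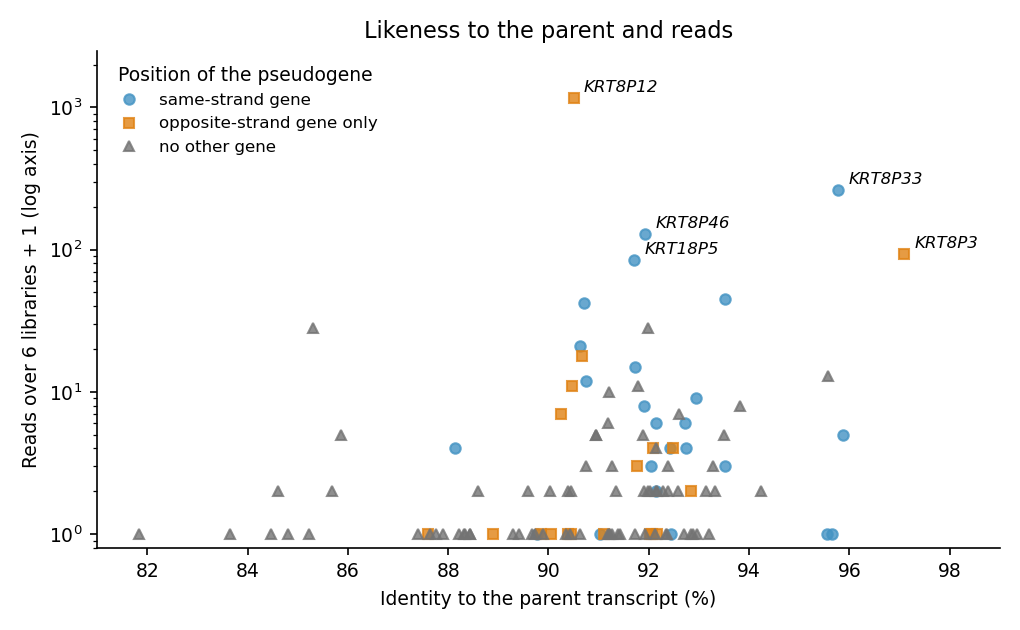
Identity to the parent transcript against reads over the 6 libraries plus 1, on a log axis, for the 118 pseudogenes, with symbols for the position relative to other genes. KRT8P3 lies farthest right at 97.1%, KRT8P12 has the most reads at 90.5% identity, and members at the bottom had no read.

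Pseudogenes of other genes gave little to compare. Of 1673 tested, 21 (1.26%) were upregulated, and their median log2 fold change was -0.02. Only 4 had a parent that was itself upregulated, namely APOC1P1, SLC2A3P1, SLC2A3P4 and CD24P4. Of the 4, limma called 0, and 1 was higher at an unadjusted P under 0.05. Their log2 fold changes were 1.04, 0.12, -0.31 and 1.09, beside 1.02 for APOC1, 1.68 for SLC2A3 and 1.64 for CD24. Of the 1640 whose parent was tested and not upregulated, 19 (1.16%) were upregulated. Among other keratins, 3 of 3 type II genes tested were upregulated (KRT4, KRT7 and KRT80) and 1 of 2 type I genes (KRT17). The 17 rows of other keratin pseudogenes summed to at most 0.273 RPKM in any library, and 0 of them reached the minimum for testing. Of the 10 epithelial junction and lineage genes, 8 were tested and 3 were upregulated, CDH1, EPCAM and JUP.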

How the data were processed

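RNA-seq of HGC27 cells comprised 2 groups of 3 libraries, assigned by their labels. The mRNA libraries were strand-specific, and the authors deposited RPKM per gene, 1 table per library. The submitters' processing notes name Trimmomatic 0.36, STAR 2.5.3a, featureCounts, Subread 1.5.1 and GRCh38. The annotation release, the strand setting and the handling of multi-mapping and duplicate reads are not given in the sources used here. All of these can change how reads are shared between a keratin and its copies.

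Reads were recovered as RPKM × length / 1000 in units of 1 read, with 100% of values whole within 0.01 of a read. Values were transformed to log2(RPKM + 0.1), which understates changes of low genes. Genes with at least 0.1 RPKM in 3 or more libraries were fitted with limma 3.58.1 (R 4.3.3), with group as the only term, a trend in the prior variance and Benjamini-Hochberg adjustment over all 23299 genes. The scripts were tested on simulated data. Shares were given 95% Clopper-Pearson intervals, and the number of rows with a read at the lowest depth was calculated exactly from the hypergeometric distribution (scipy 1.17.1). The longest pseudogene transcript of each member was aligned locally to the main KRT8, KRT18 or KRT19 transcript of GENCODE release 29 with Biopython 1.88. Identity left gaps out, and exact runs were sought in all transcripts of the parent. Rows spanning over 3000000 bases were left out when overlaps were sought, since they join distant copies of a name.

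The members and gene lists were chosen with earlier results of these data known. Named were the parents, members with 30 or more reads, members past the criteria, KRT19 pseudogenes with a read and genes that hold a named member. Others are marked as named after their values were seen. Alternatives covered the pseudocount (1 and 0.01), the filter, median-ratio scaling, limma's voom on recovered reads, the replicate block and each library left out. For the ratio to the parent, 1 read was added in place of 0.5.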

Additional observations from a re-analysis of the deposited data

How the results depend on the processing

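KRT8P3 was called higher under every alternative except a pseudocount of 1, where its log2 fold change was 0.69 and its unadjusted limma P 0.000185. The count of upregulated members was therefore 0 with that pseudocount, with 2 members higher at an unadjusted P under 0.05, beside 12% of all genes. It was 2 with voom, and from 1 to 2 when each library was left out, the other gene being KRT8P36. The count of downregulated members was 1 with a pseudocount of 0.01 and 1 with voom, KRT18P31 in both. It was 0 in each fit without 1 library, but KRT18P31 was not tested in the 3 fits without a control library, since it reached the minimum RPKM in the controls only. Likewise the parent KRT19 was not tested in the 3 fits without an HGC27-FN1 3′-UTR library. The log2 fold change of KRT8P12 turned to 0.0025 with median-ratio scaling. For the log2 ratio of summed KRT8 pseudogenes, 0.19 with all members, the value was 0.59 without KRT8P12, the member with the most reads, and for KRT18 pseudogenes, 0.38 with all, 0.57 with only members that had no same-strand gene. With only members of 1 to 9 reads, a set chosen after seeing the data, the values were 1.54 for KRT8 and 1.2 for KRT18, and with only members over no other gene, likewise, 1.39 for KRT8. The difference in the share of family reads was -29.2 percentage points for KRT8, -12.8 without KRT8P12 and -24.6 without members of a same-strand gene. For KRT18 it was -59.8, -53.3 without KRT18P5 and -47.5 without members of a same-strand gene. Leaving out each library gave 0.17 to 0.24 and 0.33 to 0.48 for the log2 ratios and -29.6 to -28.3 and -62.4 to -57.6 for the shares. The cause of these changes was not tested.

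Same-numbered replicates showed no sign of pairing, with correlations of their deviations of 0.00244, 0.0211 and 0.0103. These values do not tell whether the samples were made in pairs. With the replicate block 1 member was upregulated and 0 were downregulated, as without it. Depth limits the values of members with under 10 reads.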
